A study of Drosophila melanogaster with 2 samples.

Results

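The Hedgehog signalling pathway was examined through 10 of its genes in a map of Engrailed-GFP binding in Drosophila melanogaster embryos. The genes were chosen by name from the pathway, not by their binding, though earlier results of these data were known. They include the ligand gene hh, the receptor genes ptc and boi, and the glypican genes dlp and dally. The others are the transduction genes smo, cos, fu and Su(fu), and the transcription factor gene ci. All 10 are among the 18164 genes used from the Ensembl BDGP6 annotation. A region was given to a gene where its summit, the deposited point of highest enrichment, fell in the gene body, in the 5000 bp upstream or in the 1000 bp downstream. By this rule the 10 genes held 108 of the 30000 pooled regions. They also held 11 of the 2226 peaks that passed the submitters' irreproducible discovery rate (IDR) procedure, which draws on the ranks of peaks in replicates. The IDR list equalled the 2226 pooled regions of highest signal, so a single peak on it need not rank alike in both replicates. Of the 10 genes, 5 (ptc, ci, dlp, dally and boi) held at least 1 IDR peak. The remaining 5 (hh, smo, cos, fu and Su(fu)) held only regions outside the IDR list.

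The embryos came from strain 3T-GFP, a stable transgenic line in which Engrailed carries green fluorescent protein (GFP) at its C-terminal end. They were collected at 0 to 16 h, with the sexes mixed, and sonicated chromatin of 200 to 800 bp was precipitated. The description names an anti-GFP antibody while the antibody label reads en. The study has 1 group and 2 libraries, the biological replicates 1 and 3, from the same donor line, and no second condition, so no test between groups could be made. Each replicate and their pool has a list of 30000 regions with a signal value, which is the submitters' own and on a scale that the sources used here do not state. Read depth is unknown from these lists, no control library was analysed here, and the replicate lists are not on a common scale, so ranks are given beside signals. Because whole embryos were used, binding in fewer cells and weaker binding per cell cannot be told apart, and no cell type could be checked by its markers.

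In the fly embryo, Hedgehog is secreted by cells of the posterior compartment of each segment, where Engrailed is made, and acts on the neighbouring anterior cells. Without the ligand, the receptor Patched holds the membrane protein Smoothened inactive, and a complex that includes Costa (Cos2), Fused and Suppressor of fused keeps the zinc-finger factor Cubitus interruptus (Ci) from activating its targets. Genetic work has placed Engrailed upstream of several of these genes: posterior cells that express engrailed express hh, while ci and ptc are repressed there.

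The reference sequence around the summits is shown first, because the letters at the IDR peaks differed from gene to gene. Each line is 101 bases of the plus strand from the RefSeq release 6 assembly (dm6), centred on a summit. Capitals mark matches on either strand to TAATTA, a homeodomain core, TGGGTGGTC, the consensus of Ci and its vertebrate relatives the Gli proteins, GAGAG, bound by GAGA factor, GCCAT, the core of Pho sites, and CAGGTA, bound by Zelda. They also mark TAAT, the shorter homeodomain core that every TAATTA contains, and CGATA, which is shared by BEAF-32 and DREF sites. TAAT and CGATA were added after the sequences were seen. The set has the strongest summit of dlp in its intron 3 (chr3L:14666110-14666210) and its intronic IDR summit with the most TAAT (chr3L:14652632-14652732). It also has the only IDR summit of dally (chr3L:8841909-8842009). It ends with the IDR summits that lack TAAT, at the dlp promoter (chr3L:14632484-14632584) and upstream of ci (chr4:59120-59220). Last, for contrast, is the highest region of hh, which is not an IDR peak (chr3R:23133694-23133794).
dlp intron 3: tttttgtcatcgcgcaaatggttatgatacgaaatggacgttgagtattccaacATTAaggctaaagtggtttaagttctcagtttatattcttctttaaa
dlp intron 1: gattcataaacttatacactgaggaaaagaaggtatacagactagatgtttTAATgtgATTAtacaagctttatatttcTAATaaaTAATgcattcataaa
dally intron 1: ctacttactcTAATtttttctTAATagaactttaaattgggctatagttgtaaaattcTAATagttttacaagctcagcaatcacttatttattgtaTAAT
dlp promoter: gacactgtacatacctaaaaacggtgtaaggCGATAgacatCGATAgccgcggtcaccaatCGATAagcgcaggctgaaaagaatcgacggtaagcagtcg
ci upstream: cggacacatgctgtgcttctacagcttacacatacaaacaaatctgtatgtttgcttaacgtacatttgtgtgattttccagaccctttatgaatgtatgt
hh intron 1: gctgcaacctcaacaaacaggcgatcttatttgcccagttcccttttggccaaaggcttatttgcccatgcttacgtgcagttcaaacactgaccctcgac
None of the 6 windows holds TAATTA. The dally and dlp intron 1 windows hold 4 matches of TAAT each, and the dlp intron 3 window holds 1. Weaker intron 1 regions outside the IDR list held more, 6 in dlp and 5 in dally. The content of G and C ran from 23.8% for dally and 24.8% for dlp intron 1 to 49.5% for the dlp promoter and for hh. Its median was 33.7% over all IDR summits away from promoters. TAAT has no G or C, and whether its counts follow base composition was not tested. At the dlp promoter the capitals are 3 matches of CGATA. The ci and hh windows have no capitals, which says only that these letters are not within these windows.

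Over all 11 IDR summits of the pathway genes, TAATTA lay within 50 bp of 0, where 7.73% of all IDR summits and 6.56% of pooled regions outside the IDR list held it. TAAT lay at 9 of 11, beside 75.7% of all IDR summits and 61.2% of the other pooled regions. GAGAG was found at 3 of 11 summits, against 10.4% of all IDR summits and 12.0% of the others. These were the promoter summit of ptc with 4 matches, its intron 1 summit with 2 and the promoter summit of ci with 1. GCCAT occurred at 1 of 11, the ci promoter, where all IDR summits had 16.6% and other regions 18.0%. CGATA was at 1 of 11, the dlp promoter, against 15.2% and 13.6%. CAGGTA was at 0 of 11, against 1.71% and 2.34%. The Ci and Gli consensus TGGGTGGTC was at 0 of 11 and at 0 of the 2226 IDR summits, and at 15 of the 27774 other pooled regions, or 0.0540%. With 11 summits, 1 more or fewer match moves any of these shares widely, and no test was made of them.

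Holding an IDR peak was common among genes at large, and the share rose with the length of the window. Of all annotated genes 21.3% held an IDR summit in their window, and of protein-coding genes 23.1% did, beside 5 of the 10 pathway genes. Among protein-coding genes with windows under 10 kb the share was 18%, and neither fu nor Su(fu) held a summit. From 10 to under 20 kb it was 30.8%, and of hh, ci, smo and cos only ci held one. From 20 to under 40 kb it was 39.6%, and both ptc and boi held summits. At 40 kb or more it was 46.7%, and both dlp and dally did. The genes with peaks were thus mostly those with long windows, with ci, whose window is 15332 bp, as the exception.

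**Figure D1:**
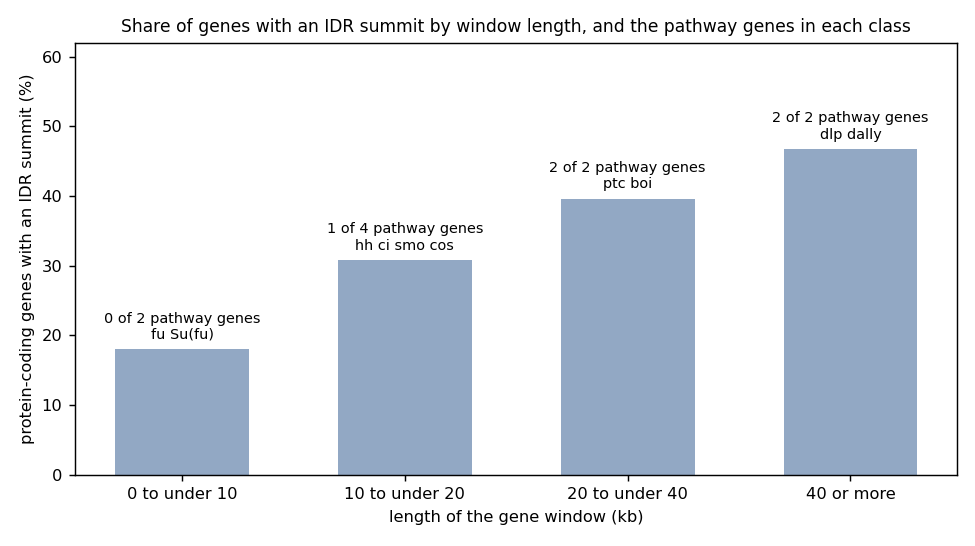
Share of protein-coding genes with an IDR summit in their window (bars, vertical axis in percent) by window length in kb (horizontal axis), with the number and names of the pathway genes of each length class that hold one. The bars climb from 18% to 46.7%, and the 4 pathway genes with windows of 20 kb or more all held a summit.

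By the highest pooled signal in its window, dlp came first at 142 and ptc next at 128, then boi at 106, dally at 87.5 and ci at 78.8. The median IDR signal was 97.5, so dlp, ptc and boi held a peak in the upper part of the IDR list, while dally and ci reached only its lower part. Below the lowest IDR signal of 65.1 followed smo at 56.5, hh at 38.8, cos at 36.7, fu at 27.3 and Su(fu) at 22.4. The share of annotated genes with a region at least as high was 6.33% for dlp, 7.69% for ptc, 10.7% for boi, 14.1% for dally and 16.2% for ci. Counted by nearest TSS instead of by window, the highest signal was 71.8 for dlp, 52.6 for dally and 153 for ptc, so dlp did not come first there. By window, the share of genes was 25.4% for smo, 40.8% for hh, 43.2% for cos, 58.0% for fu and 67.0% for Su(fu). A longer window has more places for a high region, and no allowance was made for window length in these shares. The windows ran from 7596 bp for Su(fu) to 69688 bp for dally. At least 1 pooled region was held by 10 of 10 pathway genes, which says little since 77.4% of all genes held one. Regions at the highest −log10 q-value of the pooled list, 3.82, were held by 6 of the 10, the 5 genes with IDR peaks and smo, against 28.5% of all genes.

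**Figure D2:**
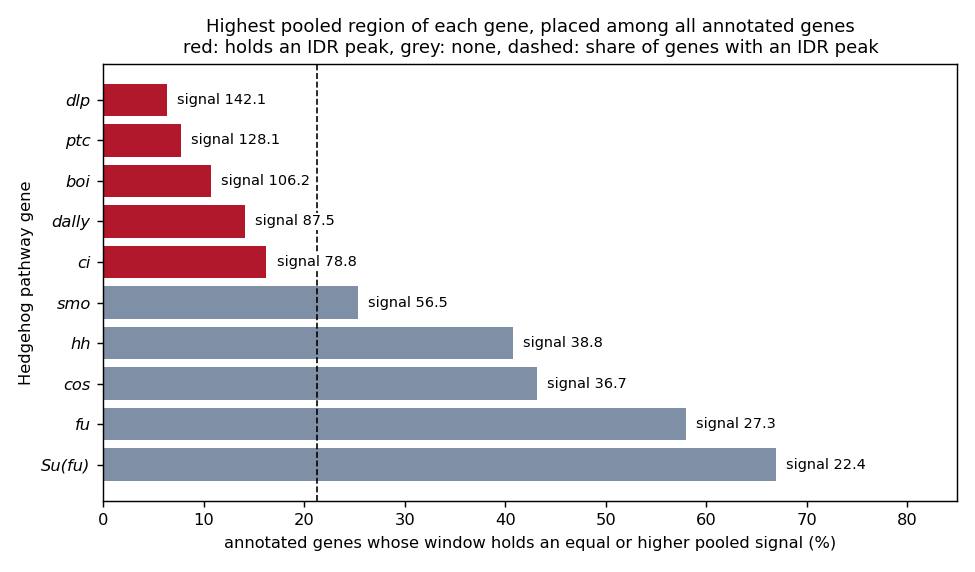
Percent of annotated genes whose window holds a pooled region of equal or higher signal (horizontal axis) for each pathway gene (vertical axis), with the gene's highest pooled signal beside its bar; red bars mark genes with an IDR peak and the dashed line the 21.3% of all genes that hold one. The bars lengthen from 6.33% for dlp to 67.0% for Su(fu), with no allowance for window length.

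The ligand gene hh (FBgn0004644, chr3R:23128169-23141906, minus strand) held no IDR peak and 6 pooled regions, with signals from 20.9 to 38.8. The highest, at chr3R:23133546-23133941, had its summit at 23133744 in intron 1, 8162 bp into the gene, with a pooled signal of 38.8 and rank 5862. In replicate 3 the overlapping region had a signal of 31.1 at rank 3757, and in replicate 1 a signal of 9.84 at rank 20435. It thus stood high in 1 library alone. The next, in intron 2 with a pooled signal of 35.9, went the other way, with a signal of 19.0 at rank 5140 in replicate 1 and no region in replicate 3. No pooled region lay within 500 bp of the hh transcription start site (TSS). There replicate 3 alone listed regions, the higher with a signal of 17.0 at rank 14897. The nearest IDR summit was 33716 bp from the hh TSS, with a pooled signal of 177 and CG46310 and Irk1 as the nearest genes. The nearest TSS to the intron 1 region, 5763 bp away, was that of CG31457 and not that of hh.

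The receptor gene ptc (FBgn0003892, chr2R:8649649-8665223, plus strand) held 2 IDR peaks and the densest set of regions among the pathway genes. The peak at chr2R:8649414-8649809 had its summit 37 bp upstream of the ptc TSS, with a pooled signal of 120 and rank 749. Its signal was 69.8 in replicate 1 at rank 359, and 60.8 in replicate 3 at rank 1036. It thus stood higher in replicate 1 by signal and by rank. The other, at chr2R:8655529-8655924, lay 6078 bp into the gene in intron 1, with a pooled signal of 128 and rank 658. Its signal was 48.3 in replicate 1 at rank 791, and 85.6 in replicate 3 at rank 543. Here replicate 3 was the higher by both measures, so the order of the ptc peaks differed between the replicates. Its nearest annotated TSS was that of lncRNA:CR44281, 4231 bp away, a noncoding RNA gene inside ptc.

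A further IDR peak lay just beyond the ptc window. At chr2R:8644336-8644434, with its summit 5274 bp upstream of the ptc TSS, it had a pooled signal of 153 and rank 450, above both peaks inside the window. Its signal was 54.9 in replicate 1 at rank 614, and 101 in replicate 3 at rank 392. The ptc TSS was its nearest TSS. The 5000 bp limit leaves it out of the counts by window, and it was looked up after a wider window had been seen. Inside the window another region of ptc, in intron 1 with its summit at 8652511, reached 61.1 in the pool at rank 2467, just below the IDR list. In the replicates it had 32.8 at rank 1697 and 31.1 at rank 3752. In all, the ptc window held 20 pooled regions in 21575 bp, or 9.27 per 10 kb, where the median gene had 2.84, the upper decile of genes began at 7.09, and 582 of the 18164 genes had as many or more. Some of these regions overlap a stronger neighbour, so the count is of listed regions and not of separate sites.

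The co-receptor gene boi (FBgn0040388, chrX:2444167-2470043, minus strand), the partner of ihog in binding Hedgehog, held 1 IDR peak at chrX:2468576-2468971. Its summit was in intron 2, 1269 bp from the start of the gene, and its pooled signal was 106 at rank 943. The signal was 46.6 in replicate 1 at rank 862, and 59.7 in replicate 3 at rank 1080, so the ranks were close. The boi TSS itself had a weak region, with its summit 5 bp away and a pooled signal of 26.6. A region of 31.5 stood 197 bp from the other boi TSS, but 133 bp from the TSS of zeste (z), which lies in the same place. A region of 35.0 just downstream of boi was 56 bp from the TSS of tko.

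The glypicans are proteoglycans at the cell surface that carry Hedgehog and other ligands, and their genes are the longest of the 10. The gene dlp (FBgn0041604, chr3L:14632601-14671609, plus strand) held 5 IDR peaks, the most of the 10 genes. Of the 18164 annotated genes, 28 held 5 or more, with no allowance for window length, which is 45009 bp for dlp. The strongest, at chr3L:14665962-14666357, lay in intron 3, 33559 bp into the gene. Its pooled signal was 142 at rank 531, with 69.2 in replicate 1 at rank 364 and 69.4 in replicate 3 at rank 809. The next, at chr3L:14661816-14662211, lay in intron 1, 68 bp from the TSS of lncRNA:CR45888, a noncoding RNA gene inside dlp. Its pooled signal was 113 at rank 851, with 47.5 in replicate 1 and 65.3 in replicate 3. The peak at chr3L:14652484-14652879, also in intron 1, had a pooled signal of 83.7 at rank 1428, with 30.1 in replicate 1 and 54.1 in replicate 3. Its replicate ranks were 2002 and 1280.

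The remaining dlp peaks were near the start of the gene and close to the lower limit of the IDR list. The peak at chr3L:14632336-14632731 had its summit 67 bp upstream of the dlp TSS and a pooled signal of 70.7 at rank 1911. In replicate 1 it had 39.8 at rank 1168, and in replicate 3 it had 37.2 at rank 2571. The peak at chr3L:14634199-14634594 lay in intron 1, 1796 bp downstream of the dlp TSS, with a pooled signal of 71.8 at rank 1860. It had 34.8 in replicate 1 at rank 1504, and 35.4 in replicate 3 at rank 2885. The signals of both peaks were thus nearly equal in the replicate lists, with better ranks in replicate 1. The other 23 pooled regions of dlp had signals of at most 44.4.

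The gene dally (FBgn0263930, chr3L:8827505-8891192, plus strand) held 1 IDR peak, at chr3L:8841761-8842156, with its summit 14454 bp into the gene in intron 1. Its pooled signal was 87.5 at rank 1330, with 41.1 in replicate 1 at rank 1099 and 45.8 in replicate 3 at rank 1747. The nearest TSS was that of lncRNA:CR45823, 3855 bp away, and not that of dally. A pair of weaker regions shared the highest −log10 q-value with the IDR peaks. The region in intron 1 with a pooled signal of 54.2 had 16.2 in replicate 1 and 36.4 in replicate 3, while the region 3414 bp upstream with 52.6 had 28.5 and 22.7. They leaned to different replicates. At the dally TSS itself the highest pooled signal was 28.6, 450 bp upstream.

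**Figure D3:**
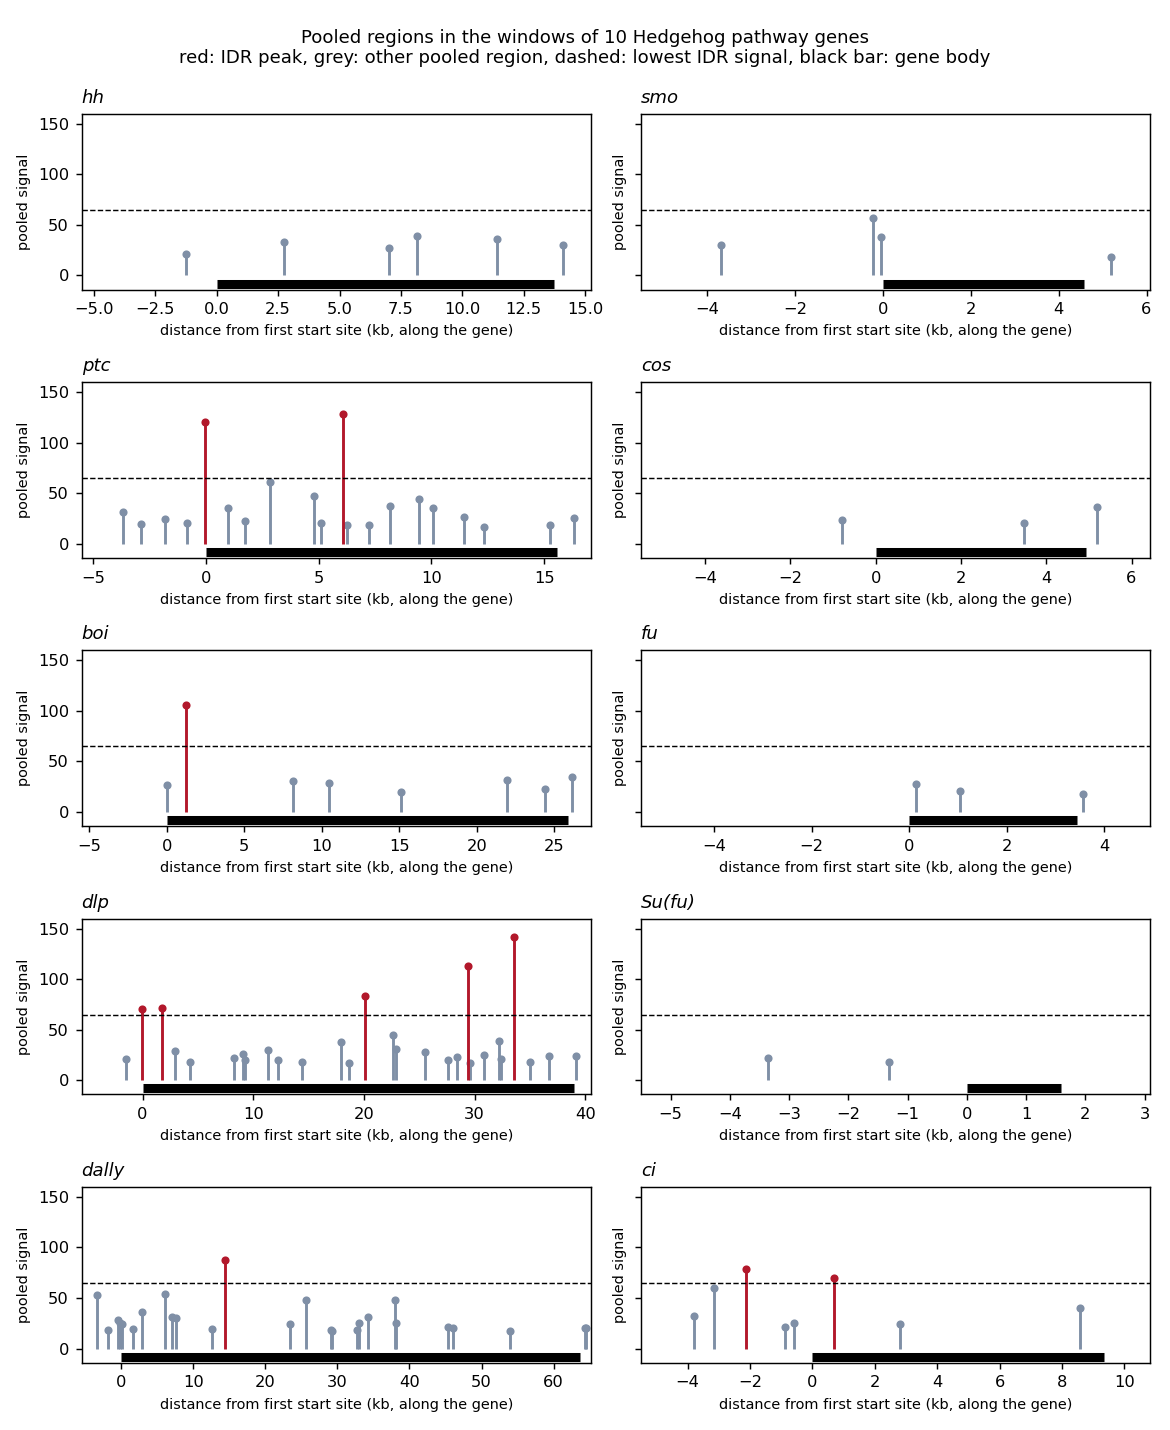
Pooled signal of each region (vertical axis) against the distance of its summit from the first annotated TSS along the gene in kb (horizontal axis), 1 panel per pathway gene. Red stems are IDR peaks, grey stems the other pooled regions, the black bar is the gene body and the dashed line the lowest IDR signal of 65.1; red stems appear in ptc, boi, dlp, dally and ci, with 5 of the 11 in dlp.

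Of the 4 transduction genes smo, cos, fu and Su(fu), 0 held an IDR peak in their window, where 21.3% of all annotated genes did. The gene smo (FBgn0003444, chr2L:277582-282167, plus strand), which encodes the membrane protein that relays the signal, came closest. Its region at chr2L:277156-277551, with the summit 228 bp upstream of the smo TSS, had a pooled signal of 56.5 at rank 2850 and the highest −log10 q-value. It had 24.6 in replicate 1 at rank 2972, and 31.8 in replicate 3 at rank 3584, so both lists held it at a like rank. The nearest TSS, at 142 bp, was that of CG17078, which starts nearby on the other strand. Outside the window, IDR summits lay 9025 bp downstream of the smo TSS with a pooled signal of 90.0, 76 bp from the TSS of CG3625, and 9917 bp upstream with 71.6, 160 bp from the TSS of CG17075.

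The gene cos (FBgn0000352, chr2R:7382176-7387115, minus strand), encoding the kinesin-like scaffold Cos2, held 3 weak regions. The highest, with a pooled signal of 36.7 at rank 6542, lay beyond the 3′ end of cos and 20 bp from the TSS of Dscam1. Its signals were 14.0 in replicate 1 at rank 9820 and 19.6 in replicate 3 at rank 11008. The protein kinase gene fu (FBgn0001079, chrX:18657755-18661204, plus strand) also held 3 weak regions, the highest 142 bp into coding exon 1 with a pooled signal of 27.3 at rank 12056. Replicate 3 listed it with a signal of 31.8 at rank 3578, and replicate 1 had no region there or anywhere else in the fu window. The gene Su(fu) (FBgn0005355, chr3R:12689873-12691468, minus strand), which encodes a protein that restrains Ci, held 2 regions. The higher had a pooled signal of 22.4 at rank 17875 and lay 24 bp from the TSS of CG14391. Replicate 1 listed it with a signal of 17.7 at rank 6000, and replicate 3 had no region in the Su(fu) window. The highest regions of fu and Su(fu) were thus each listed in a single replicate, and a different one. The next region of each, with pooled signals of 21.0 and 18.5, had no overlapping region in either replicate list. The nearest IDR summits were 82062 bp beyond the cos window, 7722 bp beyond that of fu and 34836 bp beyond that of Su(fu).

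The transcription factor gene ci (FBgn0004859, chr4:47710-57041, minus strand) held 2 IDR peaks, both in the lower part of the list. The higher, at chr4:58972-59367, had its summit 2129 bp upstream of the first ci TSS, in an intron of asRNA:CR43957, a noncoding RNA gene on the opposite strand. Its pooled signal was 78.8 at rank 1602, with 34.8 in replicate 1 at rank 1503 and 44.2 in replicate 3 at rank 1867. The other, at chr4:56137-56532, had its summit 4 bp from the downstream ci TSS and 706 bp inside the first, within exon 1 of the longer transcript. Its pooled signal was 70.0 at rank 1951. In replicate 1 it had 39.5 at rank 1183, and in replicate 3 it had 25.3 at rank 6021. The ranks of this promoter peak in the replicates were the farthest apart of the 11. A region 3172 bp upstream reached 60.3 in the pool at rank 2534, with 27.8 in replicate 1 and 33.2 in replicate 3, just below the IDR list.

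At their own promoters, within 500 bp of any TSS of the gene, 3 of the 10 pathway genes held an IDR peak, where 9.68% of protein-coding genes did. These were ptc, dlp and ci, with pooled signals of 120, 70.7 and 70.0. Any pooled region lay at the own promoter of 7 of the 10, against 51.2% of protein-coding genes. The other 4 were smo with 56.5, boi with 31.5, dally with 28.6 and fu with 27.3. None lay there for hh, cos and Su(fu). Of the 11 IDR summits, 4 were at promoters, the 3 named and the one at lncRNA:CR45888, and 7 were in introns. In the whole IDR list 49.3% of summits were at promoters and 35.4% in introns. The nearest TSS was that of the pathway gene itself for 6 of the 11. Of the 108 pooled regions, 62 were in introns, or 57.4%, against 38.5% of all pooled regions, and 24 were at promoters, or 22.2%, against 30.8%. No allowance was made for how much of each window is intron.

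All 11 IDR peaks had an overlapping region in both replicate lists, as did 2220 of the 2226 peaks of the whole IDR list. For the 11, the replicate summits were at most 74 bp from the pooled summit. All 11 were 396 bp wide, as were 80.3% of the IDR list. Of the 97 regions of pathway genes outside the IDR list, 46 had a region in both replicate lists, or 47.4%, against 48.1% of the 27774 pooled regions outside the IDR list. A region in replicate 1 alone was found for 14, or 14.4%, against 17.7%, and in replicate 3 alone for 30, or 30.9%, against 28.6%. The other 7, or 7.22%, had none in either list, against 5.54%. These shares lay close to those of the whole list. Of the 97, 14 overlapped a stronger pooled region, 2 of them an IDR peak, and could be matched to the replicate region of that neighbour.

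The replicates were also compared by the log2 of the replicate 3 signal over the replicate 1 signal at each IDR peak. Over the 2220 IDR peaks that both replicate lists cover, the median of this log2 ratio was 0.60, with 13.4% below 0. For the 11 peaks of pathway genes the median was 0.15, from −0.64 to 0.85, with 3 below 0. Those 3 were the promoter peaks of ptc at −0.20, dlp at −0.09 and ci at −0.64. The 7 peaks away from promoters had a median log2 ratio of 0.35 with 0 below 0, and the 4 at promoters a median of −0.15. Over all IDR peaks the classes had nearly the same median log2 ratio, 0.59 at promoters and 0.61 elsewhere. The split by promoter was made after the values were seen, and with 4 against 7 peaks from 2 libraries it is given as a description.

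**Figure D4:**
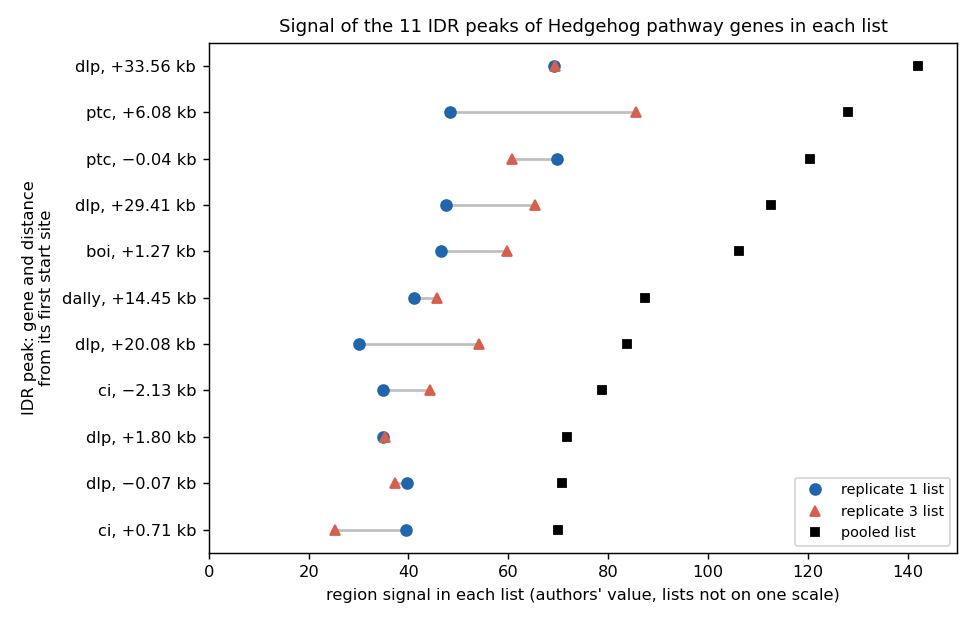
Signal (horizontal axis) of the 11 IDR peaks of the pathway genes in the replicate 1 list (circles), the replicate 3 list (triangles) and the pooled list (squares), 1 line per peak, named by gene and distance from the first TSS in kb. Triangles lie left of circles for the promoter peaks of ptc, dlp and ci, and right of or on them for the other 8.

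A wider list of 34 pathway genes was looked up by the same rule, and 34 of 34 were matched to the annotation. Of these 13 held an IDR peak, to be read beside the 21.3% of all genes. Their windows ran from 7294 bp for Roc1a to 70997 bp for rdx. Among protein-coding genes the share rose from 18% for windows under 10 kb to 46.7% at 40 kb or more. No allowance was made for window length in these counts, so they do not show an excess over other genes. Among 17 genes of transduction, 7 held one. The highest was at Gprk2, a kinase that phosphorylates Smoothened, with a pooled signal of 727, but its summit was 84 bp from the TSS of PNPase and 593 bp from that of Gprk2. The casein kinase gene gish had 617 at 136 bp from its own TSS, and sgg, the fly GSK3 kinase that phosphorylates Ci, had 215 at 237 bp from its own. The SkpA peak, with 210, lay 195 bp from the TSS of Hmt4-20. The gene rdx, whose product adapts Ci to a Cul3 ubiquitin ligase, held 6 IDR summits, the highest with 208 at 350 bp from its own TSS. The phosphatase genes mts and wdb had highest peaks of 138 and 115. That of mts was 396 bp from its own TSS and 8 bp from that of Rack1, and for wdb another summit was 46 bp from its own TSS. Several kinase and ligase genes thus held peaks above any of the 10 genes above.

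Outside transduction, peaks were held by 1 of 6 genes for maturation and spread of the ligand (ttv), by 0 of 1 for reception (ihog, whose highest region had 44.6) and by 1 of 1 in the nucleus. That gene was nej, which encodes the Ci coactivator CBP, with 89.0 at 440 bp from its own TSS. Among 9 genes known as targets, 4 held a peak. They were en with 179 at 21 bp from its own TSS, the gene that encodes the tagged protein itself, dpp with 149, sr with 83.0 and inv with 77.7. The inv summit was 31882 bp from its own TSS, and the nearest TSS was that of en, 20293 bp away. The ttv summit was 10438 bp from its own TSS and 1452 bp from that of LamC. No IDR peak was held by wg, kn, rho, ara or caup. These counts too are to be read beside the 21.3% of all genes, with no allowance for window length. The windows of the target genes with a peak ran from 10205 bp for en to 50781 bp for sr.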

How the data were processed

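The submitters sequenced immunoprecipitated chromatin of 2 biological replicates of 1 group. Per the deposited text descriptions, the authors made lists of 30000 regions, which mix peaks with background, for each replicate and for their pool, and a list of optimal IDR peaks. Each deposited region has a signal value and a −log10 q-value from the authors. Not given in the sources used here are the aligner, the peak caller, the IDR threshold and the scale of the signal. In dm6 the IDR list equalled the 2226 pooled regions of highest signal. The dm3 lists were not used. No table held columns of other samples (0 not mapped).

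Regions were placed on Ensembl release 115 gene models for BDGP6 by their summits with Python 3.11.15, pandas 2.3.3 and numpy 2.4.6, and the counting was tested on simulated data. A promoter is within 500 bp of any TSS. A pooled region was matched to the replicate region of highest signal that overlapped it by at least 1 bp. Motifs were searched on both strands within 50 bp of the summit. The sequence at 1 summit is not reported here. No test was made, since there is 1 group, and members are counted beside the share of all genes.

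The 10 genes, the wider list of 34 and the motifs were chosen with earlier results of these data known. The genes named are the 10, the genes whose TSS was nearest to their IDR summits or to their highest region, and, from the wider list, the 4 with the highest IDR signal and those with a summit within 500 bp of their own TSS. Other genes, the summits beyond the windows, the motifs TAAT and CGATA and the split of the replicate ratio by promoter were chosen after the values were seen. Alternatives were other windows, assignment to the nearest TSS, other list limits and leaving out each replicate.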

Additional observations from a re-analysis of the deposited data

How the results depend on the processing

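The count of 5 pathway genes with an IDR peak was 5 with 1000 bp upstream, by overlap and by region midpoint, 6 with 10000 bp on each side or at the highest −log10 q-value (smo added), 4 by nearest TSS (dally lost) and 3 in the upper 1113 peaks of the IDR list (ptc, dlp and boi). By nearest TSS the IDR summits fell from 11 to 7 and the pooled regions from 108 to 42, and the upper 1113 peaks held 5 of the summits. Nearest TSS has no distance limit, and its 7 summits are 6 of the 11 and the ptc summit 5274 bp upstream. The rest of the 11 had the TSS of a noncoding RNA gene as the nearest. The cause of the fall in pooled regions was not tested. The upper 1113 are a subset of the list. In the 2226 highest regions of a single list, the genes were the same 5 without replicate 1 and without replicate 3, with 8 and 14 summits, and all regions numbered 109 and 105. TAATTA was at 2 summits within 100 bp, both in dlp, where 14.0% of all IDR summits held it, and at 0 within 25 bp. The share of all genes with an IDR summit was 23.1% for protein-coding genes against 21.3%. The median log2 ratio of replicate 3 to replicate 1 of 0.15 was −0.15 at promoter summits and 0.35 at the others; the cause was not tested. The wider list had 13 genes with a peak with 1000 bp upstream and 9 by nearest TSS. Of 27 highest signals under other windows or by nearest TSS, 8 were counted as moved when set against the replicates. They include fu, from 27.3 to 28.0 with 10000 bp on each side, although replicate 1 had no region in its window to give a spread. They also include cos, from 36.7 to 46.9 with that wider window, where the replicates had 14.0 and 19.6 in the main window. Over 1.5 times were dlp, from 142 to 71.8, and dally, from 87.5 to 52.6, by nearest TSS, smo, from 56.5 to 90.0 with 10000 bp on each side, and cos, from 36.7 to 23.4 with 1000 bp upstream. No paired analysis was possible because there is 1 group. The dm3 lists were not run as an alternative. Unknown depth limits what the absence of a region in 1 replicate means.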
